A study of Mus musculus with 16 samples.

Results

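The 10 genes described here encode isozymes of 4 glycolytic enzymes: the hexokinases Hk1 and Hk2, the phosphofructokinases Pfkl, Pfkm and Pfkp, the aldolases Aldoa and Aldoc, and the enolases Eno1, Eno2 and Eno3. They were chosen by enzyme name and not by a rule on measured values, though earlier results of these data were known. They are 10 of the 25719 genes listed in the count files. Hexokinase, phosphofructokinase and aldolase act in the first phase of the pathway, whereas enolase acts in its later, energy-yielding phase. RNA was sequenced from mouse tail tendon fascicles, the thin collagen bundles of the tail tendon, without separating cell types. Of the 16 libraries, 8 came from wild-type mice (WT) and 8 from ScxCre;Vhlf/f mice, labelled KO. In the latter, Cre expressed from Scx (a transcription factor of the tendon lineage) removes Vhl where the driver is active, so cells outside that lineage keep the gene. The age and sex of the mice, and whether the wild-type mice carried Cre or the floxed allele, are not given in the sources used here.

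Glycolysis breaks glucose down to pyruvate in the cytosol and yields ATP without oxygen. Vhl encodes the substrate-binding part of a ubiquitin ligase that marks the hydroxylated alpha subunits of HIF (hypoxia-inducible factor) for degradation, and many glycolytic genes are textbook targets of HIF. Tenocytes, the resident cells of tendon, live in a tissue with few vessels and are generally held to rely much on glycolysis. Each of the 4 enzymes exists as tissue-biased isozymes, and Pfkm, Aldoa and Eno3 are the forms that dominate in skeletal muscle. The series title concerns the role of HIF1α in the tendon response to overload, and the comparison of genotypes shows how these transcripts stand when Vhl is removed.

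Total counts per library ranged from 10488355 to 18753254 in KO and from 10792900 to 16379401 in WT. Vhl itself was between 7.51 and 10.9 CPM (counts scaled to the effective size of the library) in KO libraries and between 14.1 and 25.8 CPM in WT, which fits the labels in all 16 libraries (log2 fold change -1.13, adjusted p = 9.64e-08, edgeR). Skeletal muscle transcripts varied between libraries of 1 genotype. The 18 muscle markers (Acta1, Ckm, Myh4 and others) took 2.2, 2.97 and 2.73% of the counts in KO libraries 6, 7 and 8 and 1.09% in WT library 5, against 0.00974 to 0.472% in the other 12. Their summed level ran from 457 to 26900 CPM in KO (median 2840) and from 106 to 11700 CPM in WT (median 569), and no marker was at 0 in every library of a group. Of the 18, 1 passed the test as higher in KO (Myh2) and none as lower. The fold changes and shares below are therefore also given for the other 12 libraries, a choice made after the values had been seen. Tendon markers (Scx, Mkx, Tnmd, Col1a1 and others) summed to 83500 to 185000 CPM in KO and 138000 to 387000 CPM in WT, so the labelled tissue was present in both groups; of 10, 1 was higher and 7 were lower in KO. Endothelial markers (38.2 to 499 CPM against 30.6 to 50.2 CPM, 5 of 7 tested higher) and erythroid markers (77.8 to 562 CPM against 15.1 to 50.7 CPM, 5 of 5 higher) rose in KO, and 3 of 8 macrophage markers were higher (1260 to 1830 against 1120 to 1610 CPM). Schwann cell and nerve markers summed to 292 to 544 CPM against 414 to 479 CPM (2 of 6 higher, with Nefl at 0 in every WT library), and adipocyte markers to 1.36 to 59.3 CPM against 0.676 to 2.19 CPM (2 of 2 tested higher). Over all genes tested 25.6% were higher, so the shares of macrophage and of Schwann cell and nerve markers called higher were near that background. The part of these other cell types in the results below was not tested. In bulk tissue, fewer cells of a type and less RNA per cell cannot be told apart.

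All 10 genes passed the filter on low counts. In KO 7 rose (Hk1, Hk2, Pfkl, Pfkp, Aldoa, Aldoc and Eno1), none fell, and Pfkm, Eno2 and Eno3 did not pass the test (edgeR quasi-likelihood test, adjusted p under 0.05). Across all 14803 genes tested, 48.3% were called, 25.6% higher and 22.7% lower. All 7 rose at least 2-fold, as did 8.30% of the genes tested, while 4.91% fell by as much. Of the called genes 53.0% were higher. With total counts in place of TMM factors this was 85.4%, and the median over all genes moved from 0.02 to 0.32. In that fit 8 of the 10 isozymes were higher, with Pfkm added, as were 8270 of the 14803 genes tested. At an unadjusted p under 0.05, 8 of the 10 genes were higher, with Pfkm added, and none was lower. The share of all genes at that threshold is not given here, so this count has no background beside it. DESeq2 called the same 7 higher and none of the 10 lower. Among the 18919 genes it tested, 4436 were higher and 3923 lower. The median log2 fold change of the 10 genes was 1.65, against 0.02 over all genes tested. In 6 of them every KO library lay above every WT library, as did 10.8% of all genes tested, and in none was every KO library below, as in 8.61%. Without the 4 libraries richest in muscle transcripts, the 7 were again higher, Eno2 and Eno3 were lower and the median was 1.75; among the 14900 genes tested there, 21.9% were higher and 19.0% lower. Over those 12 libraries the log2 fold change was 1.83 for Hk1, 3.82 for Hk2, 2.75 for Pfkl, 3.02 for Pfkp, 1.39 for Aldoa, 6.28 for Aldoc and 1.68 for Eno1.

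**Figure D1:**
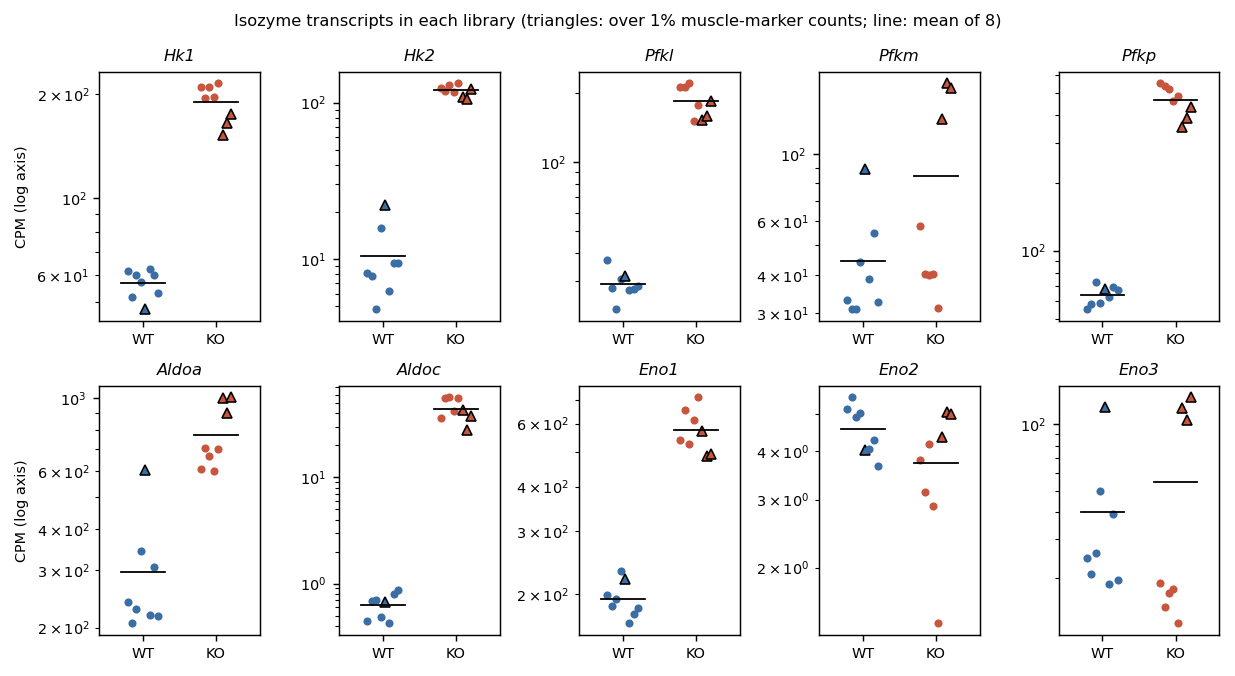
Level of each of the 10 genes in every library (CPM scaled by TMM, log axis), with WT and KO libraries side by side, horizontal lines for the mean of 8 and triangles for the 4 libraries with over 1% of counts in muscle markers. The groups are apart for Hk1, Hk2, Pfkl, Pfkp, Aldoc and Eno1, Aldoa overlaps only through WT library 5, and the high values of Pfkm and Eno3 are the triangles.

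HIF is known to bind DNA at the core words ACGTG and GCGTG. The 250 bases before the transcription start were searched for both words on both strands, which on the opposite strand read CACGT and CACGC. The sequences are those of RefSeq on GRCm38.p6; all 10 genes matched, with 19 annotated starts in all. Of all 32851 promoter windows of that length in the table, 38.6% held at least 1 of these words, 16.6% ACGTG and 28.2% GCGTG. Taking for each gene the start nearest to its principal transcript, 8 of 10 windows held at least 1, and over all starts 15 of 19 did. Below are the windows of the 4 genes with the largest fold changes, and of Pfkm, Eno2 and Eno3, the 3 that did not pass the test. All run 5′ to 3′ along the gene and end at the base before the start, and capitals mark each match. They lie at chr6:82774455-82774704 (minus strand, Hk2), chr10:78009808-78010057 (minus, Pfkl), chr13:6648772-6649021 (minus, Pfkp), chr11:78322823-78323072 (plus, Aldoc), chr15:98108221-98108470 (plus, Pfkm), chr6:124769674-124769923 (minus, Eno2) and chr11:70656926-70657175 (plus, Eno3).
Hk2: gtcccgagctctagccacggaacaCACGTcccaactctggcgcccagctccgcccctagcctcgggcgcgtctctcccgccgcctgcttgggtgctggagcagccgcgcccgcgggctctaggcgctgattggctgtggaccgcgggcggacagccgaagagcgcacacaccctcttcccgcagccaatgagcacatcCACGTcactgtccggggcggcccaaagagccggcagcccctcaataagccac
Pfkl: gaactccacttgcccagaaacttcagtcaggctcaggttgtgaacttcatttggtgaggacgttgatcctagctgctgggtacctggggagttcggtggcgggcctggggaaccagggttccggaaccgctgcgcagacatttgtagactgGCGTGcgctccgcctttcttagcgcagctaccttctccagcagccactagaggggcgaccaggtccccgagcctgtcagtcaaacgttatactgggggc
Pfkp: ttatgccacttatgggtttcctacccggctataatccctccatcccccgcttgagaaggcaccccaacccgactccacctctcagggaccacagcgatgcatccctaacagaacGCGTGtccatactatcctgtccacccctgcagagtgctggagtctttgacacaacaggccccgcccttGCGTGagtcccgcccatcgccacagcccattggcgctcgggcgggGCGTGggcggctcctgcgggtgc
Aldoc: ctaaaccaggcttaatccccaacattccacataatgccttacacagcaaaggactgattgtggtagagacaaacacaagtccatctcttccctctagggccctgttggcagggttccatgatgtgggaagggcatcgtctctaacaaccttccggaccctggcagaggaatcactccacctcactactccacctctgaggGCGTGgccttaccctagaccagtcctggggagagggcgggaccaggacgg
Pfkm: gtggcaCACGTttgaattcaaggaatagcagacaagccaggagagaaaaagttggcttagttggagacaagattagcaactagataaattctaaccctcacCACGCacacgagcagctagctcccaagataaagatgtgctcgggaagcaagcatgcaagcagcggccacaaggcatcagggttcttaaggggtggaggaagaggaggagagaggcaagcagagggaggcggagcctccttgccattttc
Eno2: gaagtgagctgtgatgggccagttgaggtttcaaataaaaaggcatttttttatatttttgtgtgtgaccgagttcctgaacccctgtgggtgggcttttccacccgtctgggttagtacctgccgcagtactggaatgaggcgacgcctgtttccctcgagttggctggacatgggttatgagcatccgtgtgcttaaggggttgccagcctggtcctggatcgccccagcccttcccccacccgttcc
Eno3: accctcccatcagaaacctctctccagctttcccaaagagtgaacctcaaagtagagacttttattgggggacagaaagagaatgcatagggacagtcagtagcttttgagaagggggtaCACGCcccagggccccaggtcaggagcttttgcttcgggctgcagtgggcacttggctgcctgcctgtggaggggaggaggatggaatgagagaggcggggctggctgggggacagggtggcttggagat

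The Hk2 window held CACGT at 226 and 52 bases before the start, the Pfkl window GCGTG at 99 bases, the Pfkp window GCGTG at 136, 68 and 23 bases, and the Aldoc window GCGTG at 50 bases. Among the 3 that did not pass, the Pfkm window held CACGT at 244 and CACGC at 149 bases, the Eno3 window held CACGC at 130 bases, and the Eno2 window held neither word. The window of Hk1 nearest its principal transcript held none either. Another annotated Hk1 start, 39487 bases away, had CACGC at 196 bases and CACGCGTG, an overlapping pair, at 15 bases before it. For the Eno3 window and the Eno1 window counted above, bases just after the annotated start were not found in the reference transcripts of the gene. That Eno1 start lay 244 bases from the start of the principal transcript, against 245 for another, whose window also held matches. A match is a description of the letters and says nothing of binding in these samples.

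Hexokinase traps glucose in the cell as glucose 6-phosphate. Hk1 (ENSMUSG00000037012, chromosome 10) is the form of most tissues, and Hk2 (ENSMUSG00000000628, chromosome 6) is the inducible form of insulin-sensitive and fast-growing tissue. Hk2 had a lowest, median and highest level of 106, 121 and 133 CPM in KO and of 4.76, 8.78 and 22.2 CPM in WT. The groups were far apart, and WT varied more in proportion, with libraries 4 and 5 highest at 15.8 and 22.2 CPM. The mean was 120 ± 9.53 CPM (SD, n = 8) in KO and 10.5 ± 5.74 CPM (n = 8) in WT, an 11.4-fold difference (log2 fold change 3.52, SE 0.253, adjusted p = 7.98e-09, edgeR).

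Hk1 rose less. Its lowest, median and highest levels were 152, 196 and 215 CPM in KO and 47.6, 58.5 and 62.3 CPM in WT, again with no overlap. The means were 190 ± 23.2 and 56.7 ± 5.22 CPM, a 3.35-fold difference (log2 fold change 1.74, SE 0.0814, adjusted p = 1.62e-12, edgeR). The 3 KO libraries lowest in Hk1 were 6, 7 and 8, those with the most muscle transcripts. Hk1 shares exonic bases with the antisense gene Hk1os, and the strand setting of the counting is not given in the sources used here.

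The make-up of the family changed with the genotype. Shares below are of counts per kilobase of merged exon within a library, so they do not depend on library scaling. Hk2 made up 47.5 ± 1.75% of Hk1 plus Hk2 in KO (45.6 to 50.4%) and 20.4 ± 9.58% in WT (10.2 to 40.0%). The difference of 27.1 percentage points had an exact two-sided permutation p of 0.000155, the smallest that 12870 assignments allow, and 0.000414 after Benjamini-Hochberg adjustment over the 8 shares tested. No WT library reached the lowest KO share. Without the 4 muscle-rich libraries the difference was 28.8 points. The level of the shares depends on the length used: with principal transcripts Hk2 was 30.7 ± 1.5% in KO and 11.4 ± 6.22% in WT, a difference of 19.3 points (adjusted exact p = 0.000311).

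Levels of Hk3 and Hkdc1 were low. Hk3, a form of white blood cells, was 3.89 CPM in KO and 4.06 CPM in WT (adjusted p = 0.798, edgeR). Hkdc1 had 0 to 2 counts in KO and 3 to 20 in WT, which left it below the filter.

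Phosphofructokinase commits fructose 6-phosphate to glycolysis, and its subunits are named for liver (Pfkl), muscle (Pfkm) and platelet (Pfkp). Pfkp (ENSMUSG00000021196, chromosome 13) measured 354, 474 and 553 CPM at its lowest, median and highest in KO and 54.8, 64.7 and 72.4 CPM in WT. The groups did not overlap, and KO libraries 6, 7 and 8 were the lowest of their group. Means of 467 ± 71.8 and 63.7 ± 6.21 CPM gave a 7.33-fold difference (log2 fold change 2.87, SE 0.0999, adjusted p = 2.22e-14, edgeR).

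Pfkl (ENSMUSG00000020277, chromosome 10) measured 150, 181 and 221 CPM in KO and 22.6, 28.5 and 37.2 CPM in WT. The 2 groups did not overlap, and the means of 184 ± 28.6 and 29.3 ± 4.16 CPM differed 6.27-fold (log2 fold change 2.65, SE 0.106, adjusted p = 1.91e-13, edgeR). Both non-muscle subunits therefore rose, by 2.65 and 2.87 on the log2 scale.

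Pfkm (ENSMUSG00000033065, chromosome 15) behaved otherwise. Its lowest, median and highest levels were 31.0, 49.2 and 171 CPM in KO and 30.7, 35.9 and 89.1 CPM in WT. The 3 highest values were those of KO libraries 6, 7 and 8 (130.5, 170.8 and 164.9 CPM), and the highest WT value was that of library 5, so the groups overlapped. Over all 16 libraries the log2 fold change was 0.94 (SE 0.416) and did not pass the test (adjusted p = 0.0768, edgeR). It passed when KO library 5 was left out (1.06, adjusted p = 0.0432) or WT library 5 (1.16, adjusted p = 0.0325), and with total counts in place of TMM (1.25, adjusted p = 0.0196). Among the 12 libraries poorer in muscle transcripts, Pfkm was 41.9 ± 9.88 CPM in KO (n = 5, 31.0 to 58.1) and 37.9 ± 8.9 CPM in WT (n = 7, 30.7 to 54.7), with a log2 fold change of 0.15 (adjusted p = 0.513, edgeR). With the muscle score as a covariate over all 16 libraries, the log2 fold change of Pfkm was 0.059 (adjusted p = 0.873, edgeR). Exons of Pfkm overlap those of Senp1 on the other strand, and those of Pfkp overlap Pitrm1.

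Within the family, the share of the muscle subunit fell and those of the other 2 rose. Pfkm was 57.3 ± 7.99% of the family in WT (50.5 to 73.2%) and 27.1 ± 16% in KO (12.9 to 49.2%), with no overlap (difference -30.2 points, exact permutation p = 0.000155, adjusted 0.000414). Pfkp went from 22.2 ± 4.84 to 40.9 ± 9.93% (adjusted exact p = 0.000995) and Pfkl from 20.5 ± 4.73 to 32 ± 6.38% (adjusted exact p = 0.0029). Without the 4 muscle-rich libraries the difference in Pfkm was -39.4 points: it was 55.0 ± 5.12% in WT and 15.6 ± 2.62% in KO, and Pfkp 23.4 and 48.0%. The exact p was then 0.00126 for each of the 8 shares, the smallest that the 792 assignments of 12 libraries allow.

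The size of these shares depends on the length assumed, since the merged exons of Pfkp (13401 bases) are far longer than its principal transcript (4145 bases). With the principal transcripts, Pfkm was 38.4% in WT and 15.2% in KO, and Pfkp 40.7 and 59.1%. The gain of Pfkl, 11.5 points with merged exons, was then 4.85 points (adjusted exact p = 0.0234), and 3.16 points without any division by length (adjusted exact p = 0.087).

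**Figure D2:**
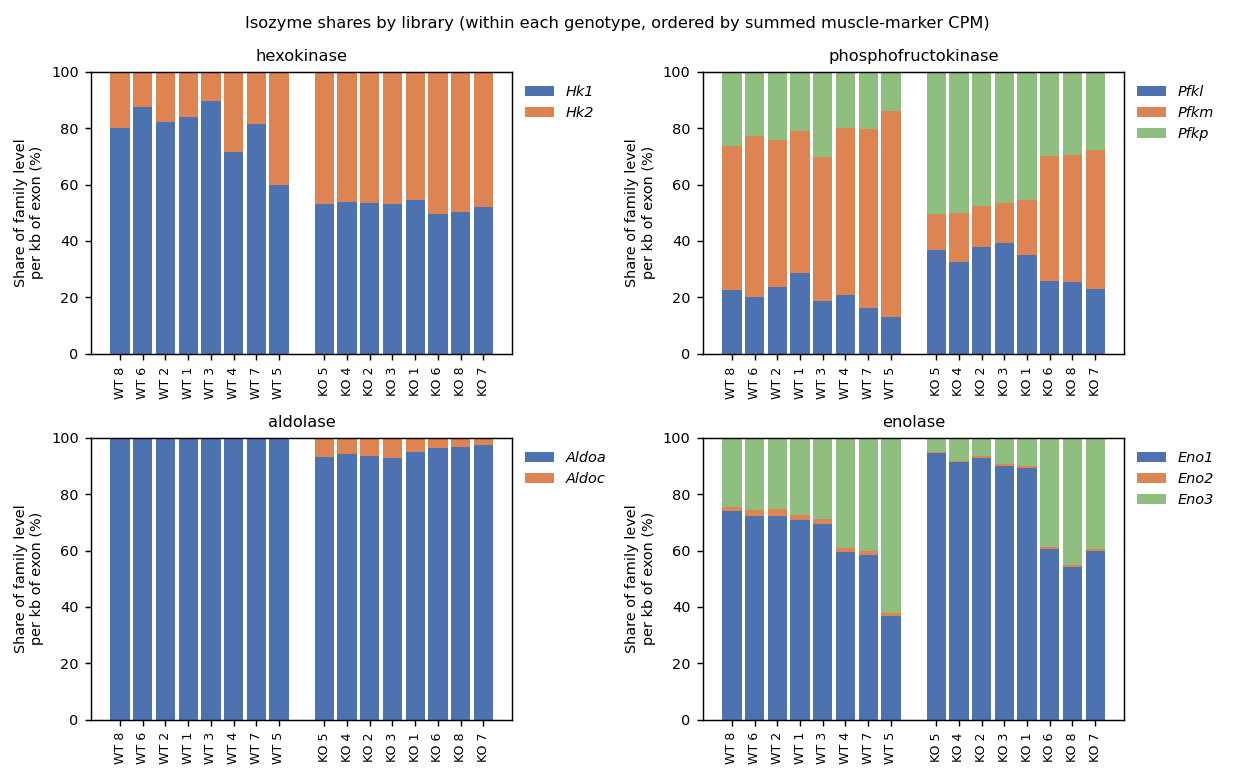
Stacked shares of each isozyme within its family (percent of counts per kilobase) in every library, ordered within a genotype by the summed level of the 18 muscle markers. Hk2, Pfkl, Pfkp and Aldoc take larger mean shares in KO, and the bands of Pfkm and Eno3 widen toward the muscle-rich end of both genotypes.

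Aldolase splits fructose 1,6-bisphosphate into 2 triose phosphates. Aldoa (ENSMUSG00000030695, chromosome 7) is the form of muscle and red cells and the main form of most tissues, and Aldoc (ENSMUSG00000017390, chromosome 11) is that of brain. Aldoc showed the largest fold change of the 10 genes. It measured 27.6, 42.3 and 56.7 CPM at its lowest, median and highest in KO and 0.422, 0.677 and 0.869 CPM in WT, where each library held only 4 to 9 counts. Means were 44.2 ± 10.8 and 0.635 ± 0.165 CPM, a 69.0-fold difference whose size rests on those few WT counts (log2 fold change 6.11, SE 0.192, adjusted p = 8.96e-15, edgeR).

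Aldoa remained the main aldolase by far. It was 602, 705 and 1010 CPM in KO and 206, 234 and 604 CPM in WT at the lowest, median and highest library. The groups overlapped only through WT library 5 at 603.7 CPM, just above KO library 4 at 602.2 CPM, and the 3 highest KO values were those of libraries 6, 7 and 8. Means of 775 ± 169 and 295 ± 134 CPM differed 2.63-fold (log2 fold change 1.39, SE 0.212, adjusted p = 2.86e-05, edgeR). Among the 12 libraries poorer in muscle transcripts the means were 658 ± 50.3 CPM (n = 5) and 251 ± 51.9 CPM (n = 7), and the log2 fold change was again 1.39, with a smaller SE of 0.126 (adjusted p = 1.8e-07, edgeR). Aldoa overlaps 25 exonic bases of Fam57b on the other strand, and the second identifier named Aldoa never exceeded 0.578% of its counts.

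Aldoc rose from 0.215 ± 0.089% of the family in WT (0.0992 to 0.357%) to 5.08 ± 1.7% in KO (2.66 to 7.04%), with an exact permutation p of 0.000155 and an adjusted p of 0.000414. The gain was 4.86 points, or 5.98 points without the 4 muscle-rich libraries. With principal transcript lengths the shares were 0.131 ± 0.0542% in WT and 3.16 ± 1.07% in KO, a gain of 3.02 points (adjusted exact p = 0.000311). Aldoc stayed a small part of the aldolase transcripts in every library.

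Enolase converts 2-phosphoglycerate to phosphoenolpyruvate. Eno1 (ENSMUSG00000063524, chromosome 4) is the ubiquitous form, Eno2 (ENSMUSG00000004267, chromosome 6) the neuronal form and Eno3 (ENSMUSG00000060600, chromosome 11) the muscle form. Eno1 measured 486, 556 and 712 CPM in KO and 165, 189 and 232 CPM in WT at the lowest, median and highest library, without overlap. Means of 575 ± 80.3 and 194 ± 22.3 CPM differed 2.96-fold (log2 fold change 1.57, SE 0.0937, adjusted p = 5.95e-11, edgeR). The related gene Eno1b was low, at 1.42 and 0.629 CPM (adjusted p = 0.00104, edgeR), and its counts never exceeded 0.685% of those of Eno1.

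Eno2 was low in both genotypes. Its levels were 1.43, 4.0 and 5.04 CPM in KO and 3.67, 4.6 and 5.52 CPM in WT, and the groups overlapped, with KO library 5 lowest. The log2 fold change of -0.30 (SE 0.195) did not pass the test (adjusted p = 0.219, edgeR). Among the 12 libraries poorer in muscle transcripts it was -0.62 and passed (adjusted p = 0.0333, edgeR), and with total counts in place of TMM it was 0.0074 (adjusted p = 0.977).

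Eno3 followed the muscle-rich libraries. It ranged from 12.5 to 133 CPM in KO (median 18.5) and from 18.9 to 120 CPM in WT (median 25.4). The 4 values above 100 CPM were those of KO libraries 6, 7 and 8 (118.7, 104.2 and 132.7 CPM) and WT library 5 (120.1 CPM), and all others were below 50 CPM. Over all libraries the log2 fold change was 0.46 (SE 0.632, adjusted p = 0.576, edgeR). Among the other 12 the direction turned: Eno3 was 16.3 ± 2.66 CPM in KO (n = 5) and 28.4 ± 11.6 CPM in WT (n = 7), a log2 fold change of -0.81 that passed the test (adjusted p = 0.0147, edgeR). With the muscle score as a covariate over all 16 libraries it was -0.89 (adjusted p = 0.039, edgeR).

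Eno1 made up 79.1 ± 17.5% in KO and 64.1 ± 12.5% in WT (adjusted exact p = 0.076), and Eno3 20.3 ± 17.5 and 34.1 ± 13.0% (adjusted exact p = 0.0886), and neither difference passed. Eno2 was 0.578 ± 0.187% in KO and 1.77 ± 0.512% in WT, and this difference passed (adjusted exact p = 0.000622). Without the 4 muscle-rich libraries Eno1 was 91.7 ± 2.13% in KO and 68.0 ± 6.45% in WT, and Eno3 7.75 ± 1.92 and 30.1 ± 6.68%. Leaving out KO library 6, 7 or 8 alone also brought the difference in Eno1 past the threshold, at 17.6, 17.8 and 18.5 points. For Eno3 the lowest adjusted exact p with 1 library left out was 0.0266, also past the threshold. With principal transcript lengths over all 16 libraries, Eno3 was 10.7 ± 10.1% in KO and 18.8 ± 9.88% in WT, and Eno1 88.9 ± 10.2 and 79.9 ± 9.61%. The differences, -8.07 points for Eno3 (adjusted exact p = 0.138) and 9.03 points for Eno1 (adjusted exact p = 0.0938), again did not pass. Without division by length the Eno3 shares were 8.6% and 15.2%, a difference of -6.61 points (adjusted exact p = 0.147).

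Levels of 3 isozymes moved with the muscle markers. In a fit of genotype and muscle score (the mean log2 CPM of the 18 markers) over 16 libraries, the log2 level rose per unit of score by 0.45 for Eno3 (adjusted p = 5.19e-05), by 0.28 for Pfkm (adjusted p = 0.000399) and by 0.15 for Aldoa (adjusted p = 0.000334, edgeR). These are the 3 muscle forms, and the slopes of the other 7 genes did not pass; for Hk2, which muscle also expresses, the slope was 0.08 (adjusted p = 0.504). Of all genes tested, 3.00% had a slope that passed. Within the 12 libraries poorer in muscle transcripts, Eno3 still had a slope of 0.21 (adjusted p = 0.000671), as against 0.852% of genes called, while Pfkm (0.12, adjusted p = 0.215) and Aldoa (0.08, adjusted p = 0.735) did not pass. Even among those 12 the summed muscle markers spanned 457 to 4311 CPM in KO and 106.4 to 2906 CPM in WT.

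**Figure D3:**
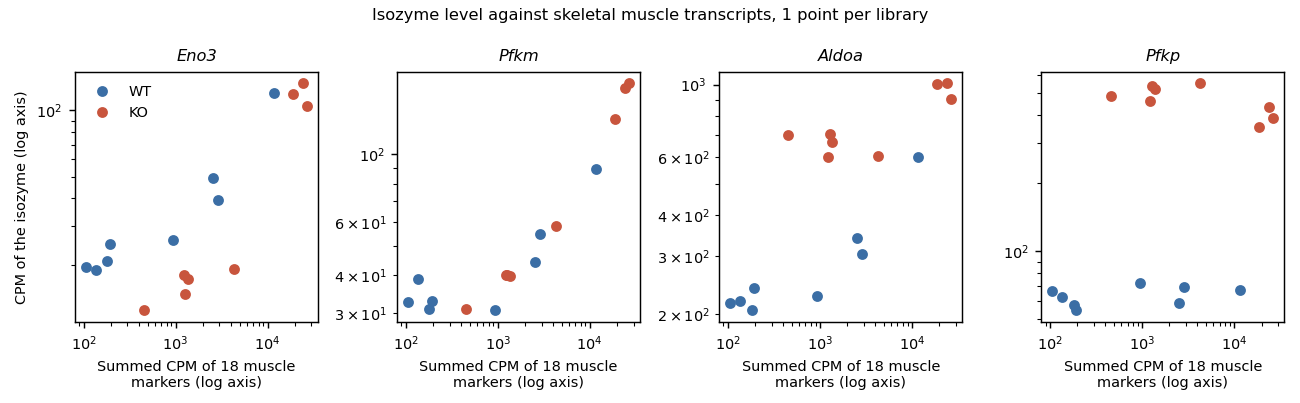
Levels of Eno3, Pfkm, Aldoa and Pfkp (CPM, log axis) against the summed level of the 18 muscle markers (CPM, log axis), 1 point per library. Eno3 and Pfkm climb in the muscle-rich libraries of both genotypes, KO points of Aldoa lie above WT points of like muscle level, and Pfkp separates by genotype along the whole axis.

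The isozymes that rose stood among a broader rise of the pathway. Of the 10 other listed genes of glycolysis, 9 were tested, 7 were higher and none was lower in KO, 6 of them without overlap, with a median log2 fold change of 1.84. Over all genes tested 25.6% were higher, 22.7% were lower and 10.8% lay higher without overlap. Tpi1 (triose phosphate isomerase) rose by 2.77, Pgk1 (phosphoglycerate kinase) by 2.65, Pgam1 (the non-muscle phosphoglycerate mutase) by 2.47, Gapdh by 2.43, Pkm (pyruvate kinase) by 1.84 and Gpi1 (glucose 6-phosphate isomerase) by 1.79 on the log2 scale. Adpgk, which phosphorylates glucose with ADP, rose by 0.22 (adjusted p = 0.0174, edgeR). Pgam2, the muscle mutase, had a log2 fold change of 1.20 that did not pass (adjusted p = 0.106), a slope on the muscle score of 0.44 (adjusted p = 4.27e-08) and its highest values in the same 4 libraries. Bpgm, which makes 2,3-bisphosphoglycerate, had a value of -0.26 (adjusted p = 0.112). Without the 4 libraries 7 were again higher and none lower, with a median of 2.0, against 21.9% higher and 19.0% lower over all genes tested there.

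Of the opposing enzymes, the fructose bisphosphatases, the muscle form Fbp2 had 31 to 233 counts per KO library and 0 to 2 per WT library (9.28 ± 4.45 CPM in KO, adjusted p = 2.52e-09, edgeR). Its 3 highest values, 12.9, 15.1 and 12.7 CPM, were those of KO libraries 1, 2 and 3, which are not among the muscle-rich ones. Fbp1, the liver form, was below the filter.

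**Figure D4:**
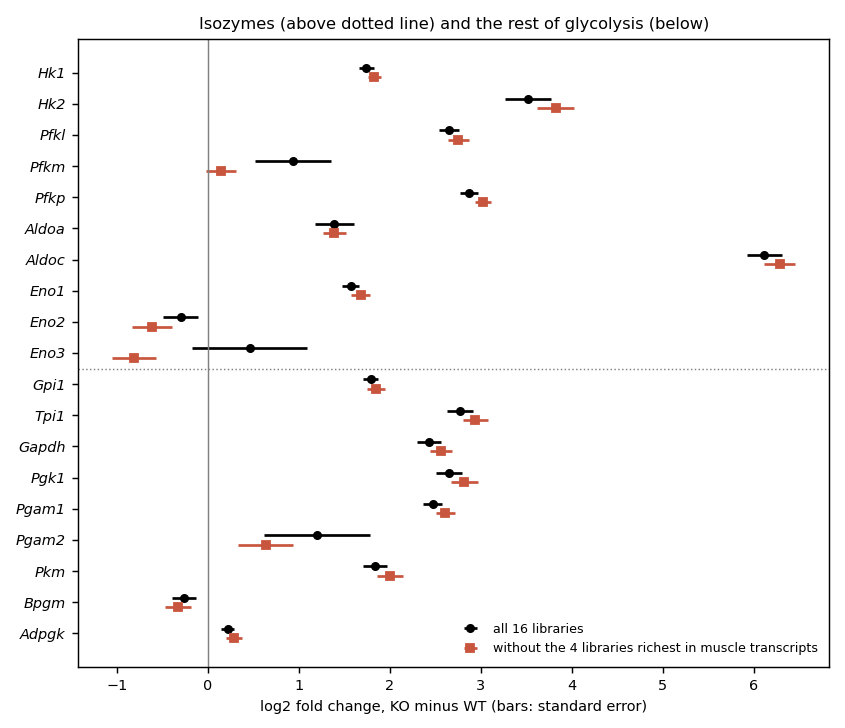
Log2 fold change, KO over WT, with SE, for the 10 isozymes and the other tested genes of glycolysis, over all 16 libraries and over the 12 poorer in muscle transcripts. Aldoc at 6.11 and Hk2 at 3.52 stand highest, and Eno3 changes sign between the fits, from 0.46 to -0.81.

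Summed over its isozymes, each family stood higher in KO in CPM per kilobase. Hexokinase was 42.3 ± 4.18 (35.9 to 47.5) against 8.4 ± 0.703 (7.39 to 9.33), a ratio of 5.04. Phosphofructokinase was 87.7 ± 14.0 (69.0 to 110) against 22.4 ± 6.24 (17.8 to 36.5), a ratio of 3.91. Neither family overlapped between genotypes. Aldolase was 280 ± 57.0 (220 to 358) against 102 ± 45.9 (70.9 to 208), a ratio of 2.75, also without overlap. Enolase was 139 ± 24.9 (108 to 176) against 60.0 ± 22.5 (42.5 to 111), a ratio of 2.32, with a small overlap through WT library 5. These sums are descriptions and carry no test.

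Compared between genes as mean CPM per kilobase of merged exon, WT ranked Aldoa (101), Eno1 (36.1), Eno3 (22.9), Pfkm (13.3), Hk1 (6.64), Pfkp (4.76), Pfkl (4.39), Hk2 (1.75), Eno2 (0.974) and Aldoc (0.195). Neighbours were in this order in at least 6 of the 8 libraries, so the least settled pair was Pfkp and Pfkl. In KO Aldoa (266) and Eno1 (107) again led in all 8 libraries, followed by Pfkp (34.9), Eno3 (31.4), Pfkl (27.5), Pfkm (25.3), Hk1 (22.2), Hk2 (20.1), Aldoc (13.6) and Eno2 (0.794). From Pfkp to Hk1 the order of neighbours held in only 3 to 5 of 8 libraries, so those ranks were not separable beyond the spread. Aldoc was below Eno2 in every WT library and above it in every KO library. These ranks depend on the length used: with principal transcripts Pfkp and Pfkm were level in WT, both at 15.4.

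As a description of which genes varied with each isozyme between libraries of 1 genotype, log2 CPM was set to deviations from the genotype mean and correlated over the 16 libraries with 13417 genes. For Eno3 the closest were Abra (r = 0.983), Tpm1 (0.983) and Tmem38a (0.982), and for Pfkm 3425401B19Rik (0.986), Cmya5 (0.986) and Gm42417 (0.975), while Pfkm and Eno3 correlated with each other at 0.962. Abra, Tpm1, Tmem38a and Cmya5 are genes of striated muscle. Aldoa was closest to Fam57b (0.935), with which it shares exonic bases, then Pgam2 (0.91) and Tmem182 (0.884). Over the 12 libraries poorer in muscle transcripts these values ran from 0.764 for Tmem182 and 0.774 for Pgam2 to 0.94 for Abra among the named neighbours, and the correlation between Pfkm and Eno3 was 0.7.

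The other 7 genes had other neighbours, given here with r over 16 and then over 12 libraries. Hk2 was closest to Slc16a3 (0.886 and 0.84), the lactate and proton exporter, then Dusp8 (0.83 and 0.667) and Nedd9 (0.828 and 0.722). Hk1 was closest to Glis2 (0.902 and 0.768), Meis2 (0.849 and 0.649) and Smpd2 (0.826 and 0.473), all lower over the 12 libraries. Pfkl was closest to Kctd15 (0.885 and 0.949), Fgd1 (0.872 and 0.884) and Sdc3 (0.871 and 0.9). For Pfkp they were Dsc2 (0.877 and 0.888), Scml2 (0.836 and 0.617) and Atp7b (0.827 and 0.692). For Aldoc the names were Sap30 (0.885 and 0.848), Dnajc24 (0.846 and 0.852) and Atp6v0e (0.819 and 0.818). Eno1 varied most closely with Copb1 (0.927 and 0.891), Sc5d (0.925 and 0.921) and Sec23b (0.923 and 0.901), the first and last of which serve vesicle coats of the secretory pathway. For Eno2 the closest was Scube3 (0.9 and 0.885), then Prr33 (0.87 and 0.865) and Pank4 (0.868 and 0.837). The libraries share depth and tissue make-up, and these correlations carry no test.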

How the data were processed

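RNA-seq gene counts of 16 tail tendon fascicle libraries (8 ScxCre;Vhlf/f, named KO, and 8 wild type, WT) were used as deposited by the authors, 1 table per library with Ensembl gene identifiers. The deposited counts are whole numbers and not normalized. Per the submitters' processing notes, kallisto, featureCounts and GRCm39 were used; their roles, versions, the annotation and the strand setting are not given in the sources used here. Symbols were found for 25614 of 25719 identifiers. Chromosomes, exon overlaps and lengths come from GENCODE M21 (GRCm38) and apply by identifier.

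Genotypes were compared with edgeR 4.0.16 (R 4.3.3): filterByExpr, TMM factors (which ran from 1.061 to 1.17 in KO and from 0.8256 to 1.067 in WT), robust quasi-likelihood F test, two-sided, Benjamini-Hochberg adjustment over the 14803 genes tested (10916 were not), threshold 0.05. CPM are scaled by TMM; log2 CPM used a prior count of 2, and the SE is the log2 fold change over the square root of F. Shares were tested by exact permutation with code written for the purpose and checked against SciPy 1.17.1. The labels do not say that each library is a separate animal, so p-values measure the spread between these libraries, which may in part be technical. The depth, at least 10488355 counts per library, leaves only genes of a few counts imprecise. The fit and the share test were tested on simulated data.

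Named were the 10 isozymes, some other genes of their families, the rest of glycolysis, the bisphosphatases, Vhl, and for each isozyme the 3 genes of mean log2 CPM of at least 1 with the closest variation; Hkdc1, Fbp1, Pklr and Eno4 were below the filter. The genes and lists were chosen with earlier results of these data known. Alternatives were other scalings, no filter, DESeq2 1.42.0, a replicate block, the muscle score as a covariate, other lengths and denominators, each library left out, and the 4 libraries richest in muscle transcripts left out. Planned correlations with the muscle score within a genotype are not given, because the libraries fell into separate clusters of fewer than 6; the slope in the fit with both terms takes their place.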

Additional observations from a re-analysis of the deposited data

Results flagged for a closer look

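In 5 of 44 groups of 8 libraries checked, 1 library stood far from the rest of its group by Dixon's criterion; chance alone gives about 2.2. Of these, 4 concern WT library 5, the WT library with over 1% of its counts in the 18 muscle markers. There Aldoa was at 9.238 log2 CPM (nearest other 8.418), the aldolase total at 7.698 log2 CPM per kilobase (nearest 6.877), Eno1 at a share of 36.89% (nearest 58.32%) and Eno3 at a share of 62.34% (nearest 40.06%). These 4 overlap, since Aldoa was 99.9% of the aldolase family in that library and the Eno1 and Eno3 shares are parts of 1 whole. The 5 flags are therefore not independent, which limits their comparison with 2.2. The flag outside WT library 5 was Eno2 in KO library 5, at 0.6638 log2 CPM (nearest 1.606). The part of muscle transcripts in these values was not tested beyond the fits given with and without the library.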

How the results depend on the processing

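Over 472 repeats of a result under another setting, 449 kept direction and side of the threshold, 1 lost the call, 12 gained it, 7 totals or counts moved and 3 reversed. Most of the 472 repeats, 320, only left out 1 library, and 314 of these were among the 449. The lost call, the moves and the reversals all came from the other settings. The reversals were Eno2 with total counts (log2 fold change 0.0074, adjusted p = 0.977) and Eno3 with the muscle score as a covariate (-0.891) or without the 4 muscle-rich libraries (-0.807). The number of isozymes lower in KO was 1 with that covariate and 2 without those libraries, against 0. Over all genes, 2983 of 14803 were lower with that covariate and 2835 of 14900 without those libraries. The number of isozymes higher ran from 7 to 8 with 1 library left out, and that of all genes from 3590 to 3808. The share of Pfkl lost its call without division by length (3.16 points). The share of Eno1 passed without the 4 libraries (23.7 points) and as a log2 ratio (1.5), and ran from 11.1 to 18.5 points with 1 library left out. That of Eno3 passed at -22.3 points and -1.46. With 1 library left out it ran from -17.4 to -9.77, and the lowest adjusted exact p was 0.0266, past the threshold. On the log2 scale the hexokinase total differed by 2.33, or 2.64 with total counts and 2.09 with principal transcript lengths, and the phosphofructokinase total by 1.99, or 2.3, 2.32 and, without lengths, 2.43. Total counts moved the median of all genes from 0.02 to 0.32 and the share of higher among called genes from 53.0 to 85.4%. Same-numbered libraries correlated between -0.397 and 0.394 in their deviations and 1 of 8 matched its own number best, so the numbers were not taken as pairs. With the replicate block 7 isozymes were higher and 0 lower, and Pfkm was at 0.73 (adjusted p = 0.216, edgeR). In that fit 7010 genes in place of 7151 were called, 3643 higher and 3367 lower of 14803. The shares tested kept their calls with the replicate block. The causes of these shifts were not tested. Few counts limit Aldoc in WT and Fbp2 and Hkdc1.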
